A study of Rattus norvegicus with 11 samples.

Results

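The 148 miRNAs described here were listed by name on 3 of the 11 arrays of a rat islet study and on none of the other 8, although the probes of 4 of them were there under another name. They were taken from the names of the larger of its array designs that were missing from the smaller one. Names ending in an asterisk, which mark the minor strand of a hairpin, were left out, as were 7 name stems (miR-216b, miR-217, miR-7a, miR-7b, miR-338, miR-451 and miR-184). The 148 names, called the added miRNAs, were part of 677 names on the larger design and of 687 over both designs. Each was measured by 20 spots, divided among 2 probes for 127 names, 3 for 6 and 4 for 15.

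The study asked how the diet of a father affects the islets of his daughters. Pancreatic islets were taken at 13 weeks from female Sprague Dawley rats that had themselves been weaned at 3 weeks onto chow. Control fathers had eaten chow with 9% fat and HFD fathers pellets with 43% fat, and at 15 weeks of age all were mated with chow-fed females. The HFD fathers were reported as heavier, glucose intolerant and insulin resistant, and their daughters as glucose intolerant at a body weight like that of Control daughters. Of each sample 100 ng of total RNA was labelled with Cy3 and hybridised to a 1-colour Agilent miRNA array. The larger design held Control 635, Control 652 and HFD 640, and the smaller one 4 Control and 4 HFD samples. The larger design has 1 HFD array, so its values carry no group test, and none was made for the 4 miRNAs whose probes were also on the smaller one. The labels do not say whether samples came from separate animals or litters, and an islet preparation holds several cell types, so fewer cells of a type and less RNA per cell cannot be told apart.

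A miRNA is cut from a hairpin in a longer transcript and guides a silencing complex to messenger RNAs that pair with its bases 2 to 8, the seed. Either arm of the hairpin can give a mature strand, named 5p or 3p, and the strand that is kept usually dominates. Many miRNAs lie inside introns of protein-coding genes, and a mirtron is an intron that is itself the hairpin. In islets, miRNAs are known for tuning insulin secretion and beta cell identity.

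Detection here is the call of the scanner software, which was positive for a name wherever at least 1 of its probes had a signal over 3 times its error. Of the 148 added miRNAs, 10 were detected on at least 1 array, against 32.3% of all 677 names. The mature sequences of those found under the same name in RefSeq (assembly GRCr8, 7 of the 10) are printed because every value below on a detected miRNA belongs to one of them, with the seed in capitals.
rno-miR-1224: gUGAGGACuggggagguggag
rno-miR-3584-5p: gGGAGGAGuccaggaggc
rno-miR-3593-3p: cUUCAACCuuaagggggccuca
rno-miR-1949: uAUACCAGgaugucagcauaguu
rno-miR-2985: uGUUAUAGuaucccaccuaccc
rno-miR-3559-5p: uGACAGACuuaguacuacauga
rno-miR-3562: uUGGGGCAguggcuggauggga
The other 3 were miR-582, miR-328a and miR-344a-3p. The 7 sequences carried 7 different seeds, and none of these seeds was found in another name of the larger design that has a sequence in the table. That table held 105 of the 148 added miRNAs by name, but only 173 of the 437 names of the larger design without an asterisk. Seeds of the names without a sequence were not compared.

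Several of the sequences are rich in guanine. The G content of the 7 detected ones ran from 9.09% to 61.9% with a median of 22.7%, and that of the 98 undetected ones from 0% to 57.1% with the same median of 22.7%. Of 6 added miRNAs with at least 50% G, 3 were detected (miR-1224, miR-3584-5p and miR-3562), and miR-1188-5p, miR-678 and miR-702-5p were not. Of all 105 added miRNAs with a sequence, 7 were detected. A relation of G content to detection was not tested.

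By the RefSeq annotation of GRCr8, most of the detected miRNAs lie within the spans of protein-coding genes. No such share is given for the undetected names, so this is not read as a trait of the detected ones. The annotation used gives the span of each gene and not its exons, so whether a hairpin is intronic was not read from it. Each strand given below is that of the miRNA, not of the gene, and miR-328a was not placed. The mature miR-1224 maps to chr11:93811355-93811375 on the minus strand, within the span of Vwa5b2. The mature miR-3584-5p maps to chr1:256727582-256727599 on the minus strand, within Itprip, whose product modulates the inositol trisphosphate receptor, and within the lncRNA LOC120100050. The hairpin of miR-582 spans chr2:42661954-42662034 on the plus strand within Pde4d, which encodes a cyclic AMP phosphodiesterase. The mature miR-2985 maps to chr2:168254526-168254547 on the minus strand within Gria2, an AMPA receptor subunit gene, and miR-3559-5p to chrX:73660193-73660214 on the minus strand within Zdhhc15, a palmitoyltransferase gene. The mature miR-3562 lies at chr10:105848002-105848023 on the minus strand within Cep131, a centrosomal protein gene. The mature miR-1949 lies at chr18:27429753-27429775 on the plus strand within Matr3, a nuclear matrix protein gene. No gene span of the table held miR-3593-3p, at chr6:78987770-78987791 on the minus strand, or the pair of miR-344a hairpins on chromosome 1.

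The added miRNAs were mostly undetected on every array. On Control 635, 5 were detected (3.38%), against 21.3% of all names of that design. On Control 652 it was 7 (4.73%, against 27.6%) and on HFD 640 it was 10 (6.76%, against 32.2%). On all 3 arrays 5 were detected (3.38%, against 21.0%), and 138 (93.2%) were detected on none. Of the 340 names that both designs carry, 54.4% were detected on at least 1 of these arrays, and of the 187 asterisk names of the larger design alone, 12.3% were. The order of the arrays was the same in each set of names, with HFD 640 highest and Control 635 lowest.

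**Figure D1:**
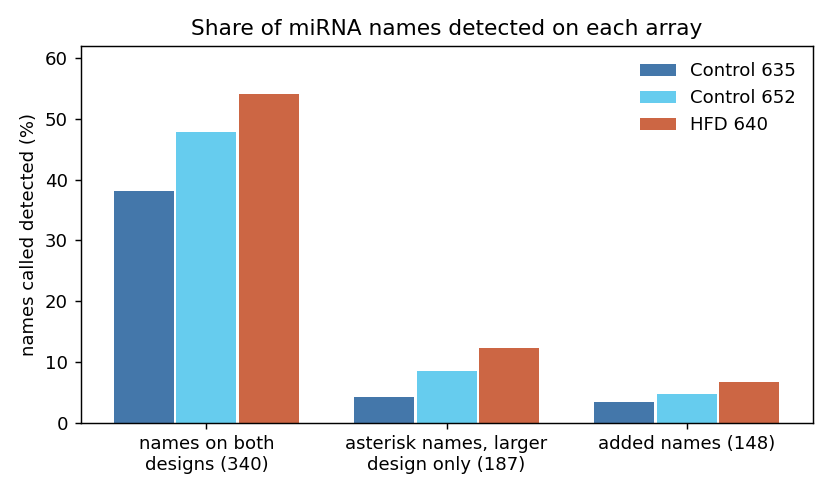
Percentage of names called detected (y axis) on Control 635, Control 652 and HFD 640 (bars) for the 340 names on both designs, the 187 asterisk names and the 148 added names of the larger design alone. The added names sit between 3.38% and 6.76%, and the names on both designs between 38.2% and 54.1%.

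The 3 arrays also differed in brightness. The 75th percentile of the total signal over the 142 names detected on all 3 arrays was 366 on Control 635, 663 on Control 652 and 761 on HFD 640. The standard deviation of the negative control spots was 8.79, 10.4 and 9.33 on the same arrays, and no spot was saturated. Over all 677 names, 30 were detected on HFD 640 alone, 44 on Control 652 and HFD 640, and 0 on both Control arrays without HFD 640. The part of array brightness in the detection pattern was not tested. The endocrine islet miRNAs listed for a check of the tissue, none of them an added miRNA, were all detected (13 of 13 names, 12 of them on all 3 arrays). Of the 4 exocrine acinar names, 3 were detected on all 3 arrays.

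miR-1224, a known mirtron, had a total signal of 492 ± 40.2 on Control 635, 479 ± 37.6 on Control 652 and 763 ± 60.01 on HFD 640. The total signal is the software's sum over the probes of a name in arbitrary intensity units, and each ± is the software's own error for 1 array, not a spread between animals. Before scaling between arrays, HFD 640 was highest and both Control arrays were within their errors of each other. All 10 spots of each probe were well above background on all 3 arrays, and the coefficient of variation among the spots of a probe was 2.44% to 7.43%.

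miR-3584-5p had a total signal of 165 ± 14.1, 144 ± 12.2 and 296 ± 21.8 on Control 635, Control 652 and HFD 640. HFD 640 was again highest before scaling. Its spots too were all well above background, with a coefficient of variation of 3.38% to 6.37%. The other arm of its hairpin, miR-3584-3p, was not detected on any of the 3 arrays.

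miR-582 had a total signal of 42.7 ± 8.43 on Control 635, 87.0 ± 9.16 on Control 652 and 89.3 ± 8.63 on HFD 640. Control 652 and HFD 640 were within their errors of each other before scaling, and Control 635 was lower, as it was for most names. The name on the array does not state the arm.

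miR-3593-3p had a total signal of 53.4 ± 8.72, 34.5 ± 7.19 and 66.8 ± 7.54 on the same arrays, lowest on Control 652. miR-328a, whose name in earlier catalogues was miR-328, read 19.2 ± 5.87, 27.5 ± 5.51 and 50.3 ± 6.91. Those totals do not sum the same probes. The software version of these arrays added only probes that passed detection, which for miR-328a was 1 of 2 probes on Control 635, 1 of 2 on Control 652 and 2 of 2 on HFD 640. The sum over both probes was 30.2, 40.6 and 50.3, so that before scaling HFD 640 stayed highest by a smaller margin.

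A pair of miRNAs was detected on Control 652 and HFD 640 only. miR-344a-3p read 54.5 ± 7.81 on Control 652 and 55.2 ± 7.08 on HFD 640. Its probes summed to 14.8 on Control 635, where it was not detected. miR-1949 read 15.3 ± 5.01 and 19.1 ± 4.57, each from 1 of its 2 probes. Its probes together summed to 15.6 on Control 635, 25.4 on Control 652 and 31.3 on HFD 640.

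The remaining 3 were detected on HFD 640 alone, each close to the limit of 3 for signal over error. For miR-2985 the best probe had a ratio of 3.19 on HFD 640, 1.15 on Control 652 and 2.22 on Control 635. For miR-3559-5p the ratio was 3.06 on HFD 640, 2.61 on Control 652 and 1.07 on Control 635. For miR-3562 it was 3.84, 2.50 and 1.64 on those arrays. None of the 3 had a spot well above background on any array. The sums over both probes were 24.3, 10.5 and 27.8 for miR-2985 on Control 635, Control 652 and HFD 640, 9.43, 21.8 and 21.0 for miR-3559-5p, and 14.9, 22.8 and 32.8 for miR-3562.

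**Figure D2:**
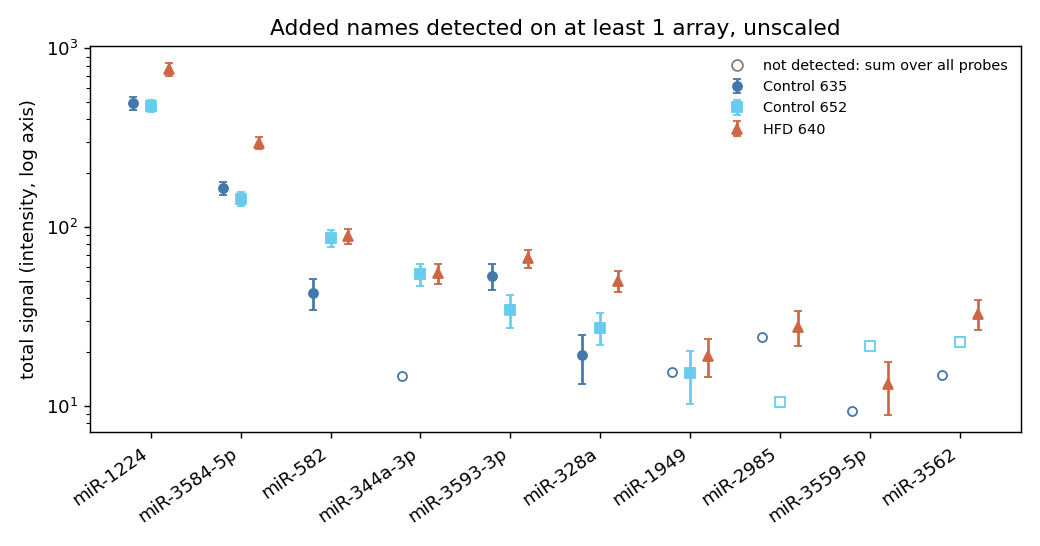
Total signal in intensity units (log axis), before scaling, of the 10 added names detected on at least 1 array, by array. Bars are the software error. Filled points sum the detected probes, and open points sum all probes where the name was not detected. miR-1224 and miR-3584-5p lie far above their errors on all 3 arrays, while miR-2985, miR-3559-5p and miR-3562 are filled on HFD 640 alone.

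To set HFD 640 against the Control arrays, log2 of the total signal was taken relative to the 75th percentile of each array over the 142 names detected on all 3. On this scale the difference of HFD 640 from the Control mean was 0.023 for miR-1224 (Control SD 0.64, n = 2), 0.31 for miR-3584-5p (SD 0.75) and 0.011 for miR-3593-3p (SD 1.05). It was -0.078 for miR-582 (SD 0.12) and 0.50 for miR-328a (SD 0.24). Of these 5 miRNAs, 4 lay between both Control arrays, and miR-328a lay above both. Among all 142 names, HFD 640 lay above both Control arrays for 24 (16.9%) and below both for 37 (26.1%). The median difference was 0.023 over the 5 added miRNAs and -0.021 over the 142 names. A difference of over 2-fold in either direction was found for 0 of the 5, and for 0% of the 142. The position of miR-328a rested on the uneven probe sums given above: with both probes summed on every array its difference was -0.11, and 0 of the 5 lay above both Control arrays. Other names had partial sums too. The total equalled the sum over all probes for 104 of 144 detected names on Control 635, 149 of 187 on Control 652 and 170 of 218 on HFD 640. The counts over the 142 names use these totals, so they are no background for the count with both probes summed.

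For 4 of the 5 added miRNAs, all but miR-328a, the scaled difference between the Control arrays was wider than that of HFD 640 from their mean. This follows from the place of these 4 between both Control arrays and is not a separate result. Among all 142 names the difference between the Control arrays was the wider one for 117 (82.4%). Control 652 minus Control 635 was -1.49 on the log2 scale for miR-3593-3p, -1.06 for miR-3584-5p and -0.90 for miR-1224. The same difference was -0.34 for miR-328a and 0.17 for miR-582. Ordered over the 142 names from the lowest, miR-3593-3p, miR-3584-5p and miR-1224 took places 2, 3 and 5. The totals of these 3 summed both probes on every array. For some of the other names only part of the probes was summed, so the places and counts over the 142 names compare unlike sums. Before any scaling, the total signal was at least as high on Control 635 as on Control 652 for 5 of the 142 names, and 3 of those 5 were added miRNAs. The other names were miR-211* and miR-125a-3p. Over all 142 names Control 652 was brighter than Control 635 by a median log2 ratio of 1.10. Both probes of each of the 3 miRNAs showed the lower scaled value on Control 652, with differences of -1.59 and -1.40 for miR-3593-3p, -0.99 and -1.12 for miR-3584-5p and -0.63 and -0.99 for miR-1224. These 3 were singled out after their values were seen. Before scaling, HFD 640 read higher than either Control array for all 5 added miRNAs and for 99 of the 142 names (69.7%).

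**Figure D3:**
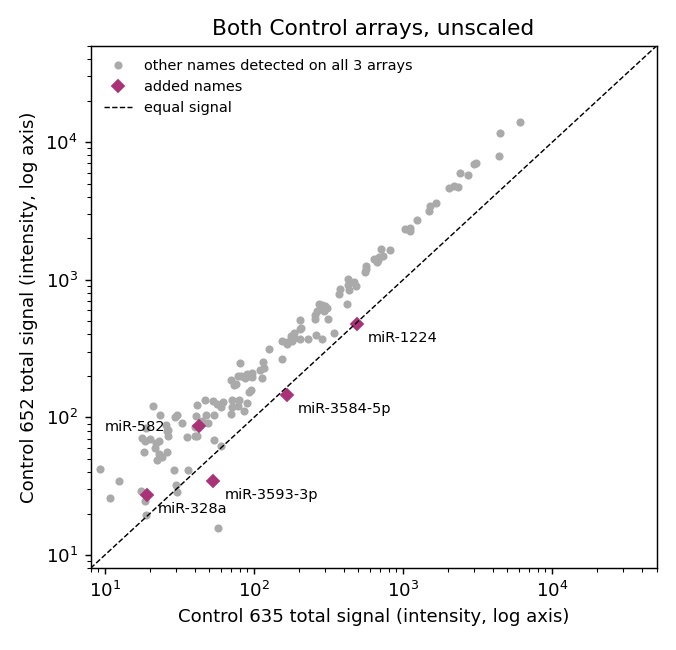
Total signal on Control 635 (x axis) against Control 652 (y axis), both log axes in intensity units before scaling, for the 142 names detected on all 3 arrays, with the 5 added names as diamonds. miR-1224, miR-3584-5p and miR-3593-3p lie on or under the line of equal signal, while 137 of the 142 names lie above it.

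Most of the undetected miRNAs lay near the background of the arrays. They are counted by array here, so the counts of the Control arrays include names detected on another array. The best probe had a signal over its error for 8 of 143 undetected names on Control 635, 10 of 141 on Control 652 and 24 of 138 on HFD 640. The median over undetected names of the best probe's signal over error was -0.077 on Control 635 (143 names), -0.27 on Control 652 (141 names) and 0.29 on HFD 640 (138 names). Their probes read below 0 after background subtraction for 220 of 322 probes on Control 635, 247 of 318 on Control 652 and 175 of 312 on HFD 640. Of names that were detected on no array, the nearest to the limit were on HFD 640, with ratios of 2.66 for miR-1249, 2.60 for miR-3561-5p, 2.27 for miR-3546, 2.21 for miR-3564 and 2.14 for miR-3573-3p. A miRNA at this level was not detectable with these arrays and may still be present.

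A minority of the undetected set consists of miRNAs on the strand opposite to another miRNA. By the positions annotated in GRCr8, the hairpins of 40 added miRNAs were found to overlap the hairpin of another miRNA on the other strand. The overlap was 36 to 110 bases with a median of 87. For 28 of the 40 the table holds a mature strand that faces one of the other hairpin. Of these 28, 27 share 16 to 22 positions with it, so that the strands are largely reverse complements, and miR-3120 shares 1. Examples of the pairs, each added miRNA followed by the miRNA on the other strand, are shown because their letters pair with each other over 18 to 22 shared positions.
rno-miR-3596a: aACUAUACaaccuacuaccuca
rno-let-7a-5p: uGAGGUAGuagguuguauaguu
rno-miR-3556a: cGAUUUCAgauggugcua
rno-miR-29a-3p: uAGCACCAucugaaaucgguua
rno-miR-3574: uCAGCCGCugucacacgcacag
rno-miR-210-3p: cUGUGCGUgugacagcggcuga
rno-miR-3553: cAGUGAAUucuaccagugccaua
rno-miR-183-5p: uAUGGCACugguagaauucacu
The capitals again mark the seed. The mature miR-3596a lies at chr8:50805219-50805240 on the minus strand, miR-3556a at chr4:60617972-60617989, miR-3574 at chr1:205755946-205755967 and miR-3553 at chr4:59756105-59756127, these last on the plus strand.

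None of the 40 was detected on any of the 3 arrays, while 10 of the other 108 added miRNAs were. The 40 may not be all such miRNAs. miR-3556b, counted among the 108, resembles miR-3556a in sequence, but no hairpin was found opposite it. The counts and medians of the 40 and the 108 hold for this split only. The miRNA on the other strand was detected on all 3 arrays for 20 of the 40, on at least 1 for 27, and on none for 13, counted by hairpin with either arm. let-7a, a member of the let-7 family found in most differentiated tissues, had a total signal of 2702, 5787 and 5276 on Control 635, Control 652 and HFD 640. Its counterpart miR-3596a had a best probe ratio of at most 0.61. miR-29a, which is abundant in beta cells, read 2392, 5922 and 5524, and the ratio of miR-3556a was at most 0.21. The hypoxia-induced miR-210 read 47.8, 104 and 105, with a highest ratio of -0.85 for miR-3574, and miR-183 read 180, 357 and 293, with a highest ratio of 0.48 for miR-3553. Several hairpins can give the same mature let-7a, so its signal is not that of 1 locus.

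For the 20 miRNAs whose counterpart was detected on all 3 arrays, the highest best probe ratio was 1.70, for miR-3592 opposite the miR-382 hairpin. The highest of all 40 was 2.27, for miR-3546 opposite the hairpin of the cardiac miR-208a, which was itself not detected. The median over names of the highest ratio on any array was 0.43 for the 40 and 0.36 for the other 108. On that median the 40 were not lower, and the sets differed in their upper end, with a ratio over 2 for 1 of 40 and 14 of 108, the 10 detected ones included. No test of this difference was made. Of the 40, 12 lie on chromosome 6. Of those, 10 lie opposite names of the imprinted Dlk1-Meg3 cluster, and miR-3545-5p and miR-3545-3p lie opposite miR-203.

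**Figure D4:**
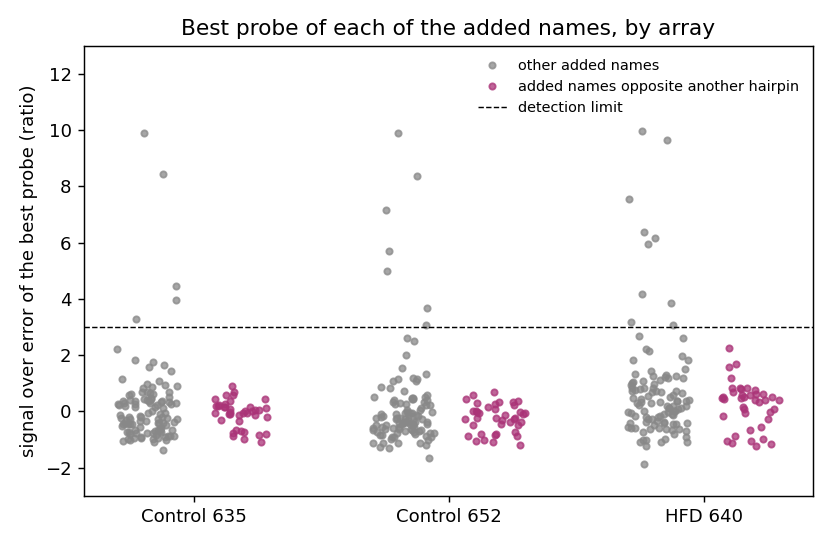
Signal over error (y axis, ratio) of the best probe of each of the 148 added names on each array, 1 point per name. Names whose hairpin was found opposite another miRNA hairpin are in purple, all other names in grey, and the dashed line is the detection limit of 3. No purple point reaches the line on any array, and the highest is at 2.27 on HFD 640.

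The arms of a hairpin can be set side by side for 26 hairpins with both arms among the added miRNAs. Neither arm was detected for 22 of them. Exactly 1 arm was detected for 4, namely the 5p arm of miR-3584 and miR-3559 and the 3p arm of miR-3593 and miR-344a, and both arms for 0. By number, 78 added miRNAs fall in the run miR-3541 to miR-3597 and 4 of them were detected, against 6 of the other 70. Over all 148 added miRNAs, 6.76% were detected on at least 1 array. Neither the arm counts nor the counts by number were tested against that share, and they are not read as a choice of strand.

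Groups of related miRNAs were also read from lists of names by cluster or tissue, which do not hold every miRNA located in a cluster. For comparison, 6.76% of all 148 added miRNAs and 54.4% of the 340 names on both designs were detected on at least 1 array. The lists hold few added miRNAs. At the share of the added miRNAs, 0 detected in so short a list is not read as a trait of the cluster or tissue. For the Dlk1-Meg3 cluster, a large imprinted cluster expressed from the maternal chromosome, the list had 8 added members (miR-1193-3p, miR-1193-5p, miR-496, miR-544, miR-665, miR-666, miR-667 and miR-668). None of the 8 was detected, with a highest ratio of 0.75 for miR-544. Of the 43 names of that cluster on both designs, 30 were detected on at least 1 of the 3 arrays and 20 on all 3. The list of the X-linked testis cluster had 5 added members, of which 0 were detected, with a highest ratio of 1.84 for miR-547, and 2 of its 10 names on both designs were detected. By position, both arms of miR-1188 also lie among the Dlk1-Meg3 names, and both arms of miR-3551 and miR-3580 lie near miR-741 on chromosome X. These 3 hairpins are outside the lists, and none of their arms was detected, with ratios of up to 1.04, for miR-3580-3p.

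The early embryo cluster of pluripotent cells added miR-291b, miR-293, miR-294 and miR-295, of which 0 were detected, with ratios up to 0.96. Of the 5 names of that list on both designs, 1 was detected, on all 3 arrays. The cardiac and slow muscle miR-208b was undetected on both arms, with ratios of 0.56 for the 3p and 0.72 for the 5p arm. Of the 6 muscle names on both designs, 1 was detected on at least 1 array. miR-466d, a relative of the repeat-rich Sfmbt2 cluster, was undetected with a ratio of up to 1.98, and 1 of the 3 names of its list on both designs was detected. Of 3 added mirtron names, miR-1224 was detected on all 3 arrays, while miR-702-5p reached a ratio of 0.46 and miR-702-3p one of 1.10. The lists for liver, neurons, blood, endocrine islet, exocrine acinar and endothelial cells had 0 added members.

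Probes of 4 added miRNAs were on the smaller design under an earlier name, which extends their values to all 11 arrays. They were miR-17-1-3p (there miR-17-3p, 4 of 4 probes), miR-328a (miR-328, 2 of 2), miR-344a-3p (miR-344-3p, 2 of 2) and miR-344a-5p (miR-344-5p, 4 of 4). miR-17-1-3p and miR-344a-5p were detected on none of the 11 arrays. The totals of the smaller design sum all probes of a name and were made by an earlier software version, so levels are not compared across designs.

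miR-344a-3p was detected on all 8 arrays of the smaller design. Its total signal was 39.5, 62.5, 53.9 and 67.4 on Control 602, 613, 615 and 639, and 35.6, 61.9, 65.5 and 53.6 on HFD 603, 607, 644 and 653. On the log2 scale, relative to the 75th percentile of each array and re-centred, Control was at 5.70 ± 0.31 (SD, n = 4) and HFD at 5.79 ± 0.17 (SD, n = 4). The groups overlapped.

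miR-328a was likewise detected on all 8. It read 45.0, 58.9, 84.0 and 86.7 on the Control arrays, and 53.4, 83.5, 81.9 and 292 on the HFD arrays in the same order. HFD 653 was the highest, and the other 3 HFD arrays lay within the Control range. On the scaled log2 values Control was at 5.98 ± 0.47 (SD, n = 4) and HFD at 6.74 ± 1.12 (SD, n = 4), with overlap. The difference of 0.76 fell to 0.20 without HFD 653. The smaller design had 92 names detected on all 8 arrays, and for 2 of them (2.17%) all 4 HFD arrays lay above all 4 Control arrays. HFD 653 stood apart in its background, with a standard deviation of the negative control spots of 12.9, while the remaining 7 of that design had 2.26 to 3.65. It also had the fewest detected names there, 108 of 350. The part of this background in the value of miR-328a was not tested.

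**Figure D5:**
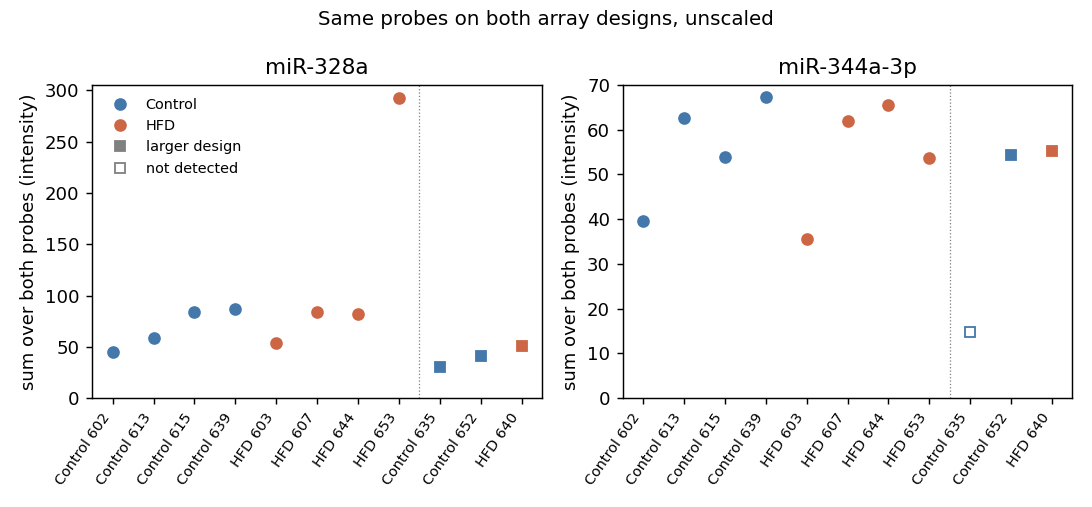
Sum over both probes in intensity units (y axes, starting at 0, before scaling) of miR-328a and miR-344a-3p on each of the 11 arrays, with the smaller design as circles left of the dotted line and the larger design as squares. HFD 653 reads 292 for miR-328a and 53.6, within the Control range, for miR-344a-3p, and the open square marks Control 635, where miR-344a-3p was not detected.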

How the data were processed

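The deposited intensity values are those of the scanner software, Agilent Feature Extraction 10.5.1.1 for the smaller design and 10.7.3.1 for the larger, per the file headers. Spot intensity was background-subtracted and not normalised between arrays. The authors' deposited log2 table of the larger design equals log2 of the total signal within 0.01, except in 3, 2 and 2 cells of Control 635, Control 652 and HFD 640, and is blank where a name was undetected. Its column medians are 6.59, 6.89 and 6.52, with no centring. The submitters' processing notes list Partek and RMA, and their role is not given in the sources used here.

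In the later software, an undetected name is written as 0.1 and a total sums detected probes only. The earlier version sums all probes. The software's rule was recomputed from the probe values and gave the same detection call for every name on the 11 arrays. Scaling subtracted log2 of the 75th percentile over names detected on all 3 arrays, or on all 8 for the smaller design. Samples were grouped by their titles.

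No group test was run: the larger design has 1 HFD array, and the probes shared with the smaller one are given as values. Samples far from their group were looked for with Dixon's ratio. The number of arrays limits the precision. Alternatives were other scalings, summaries, detection rules, normexp with an offset of 50 (limma 3.58.1, R 4.3.3) and leaving out arrays. The spot files give no mean signal, so normexp used spot medians. The scaling and the count of differences past 2-fold were tested on simulated data, and the other counts were not. Genomic positions and sequences are those of RefSeq for GRCr8, matched by name, not of the array's own build. All miRNAs detected on all 3 arrays are named, and then other detected ones, list members and those nearest the limit. The added miRNAs, lists and rules were chosen with earlier results of these data known. Tools were Python 3.11.15, pandas 2.3.3 and numpy 2.4.6.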

Additional observations from a re-analysis of the deposited data

Results flagged for a closer look

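miR-328a on HFD 653 stood apart from the other HFD arrays of the smaller design. The gap to the nearest HFD array was 0.973 of the range of the 4, above Dixon's 95% critical value for 4 samples, and 4 groups were checked in this way. Both probes read high there, with probe totals of 123 ± 15.5 and 170 ± 19.4 (software error) on HFD 653. On the other 7 arrays of that design they ran from 9.32 to 15.3 and from 34.3 to 72.7. Chance flags about 1 in 20 such groups.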

How the results depend on the processing

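Detection depended on the rule: where a probe needed most of its spots well above background, 2 added miRNAs were detected on Control 635, 6 on HFD 640 and 2 (miR-1224 and miR-3584-5p) on all 3 arrays, with 5 on Control 652. Of the 5 scaled differences, 1 was past 2-fold and 5 lay above both Control arrays with no scaling between arrays. That setting leaves in a median shift of 0.61 over all names. With the 75th percentile over all 677 names, 5 were past 2-fold, 0 lay above and 1 below the Control range, the median difference was -3.76 and miR-328a read -3.28. Under that setting the percentile of Control 635 is 0.1, the value of an undetected name. The number above was 0 with quantile normalisation, with the mean processed signal, with normexp and with all probes summed, the last chosen after seeing the data. The number below was 1 with median scaling, 1 with quantile normalisation and 2 with normexp. miR-328a turned to -0.11 with the mean processed signal, -0.42 with normexp and -0.11 with all probes summed. The mean processed signal and all probes summed gave equal differences for each of the 5, so they are not separate alternatives. Leaving out 1 Control array gave 2 to 4 above, 1 to 3 below and a median difference of -0.22 to 0.67. With a single Control array every miRNA falls above or below it, so these counts cannot be set against those for a range of 2 arrays. Without Control 635, 4 lay above and 1 below, and without Control 652, 2 above and 3 below. Leaving out 1 of the 3 arrays left 5 to 7 added miRNAs detected on all remaining arrays. For the turn under normexp, the cause was not tested. On the smaller design, leaving out each array gave differences of 0.20 to 0.96 for miR-328a and -0.059 to 0.18 for miR-344a-3p. No paired analysis was possible because no replicate number occurs in both groups.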
